A study of Mus musculus with 4 samples.

Results

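The 7 mouse genes described here, of 20001 that the site tables name, are Rbbp6, 2610524H06Rik, 2610507B11Rik, Tmem168, Tmed9, Atxn7l3b and Ipo5. They were picked by name because each holds a site whose level of N6-methyladenosine (m6A) was high without dTAG13 and low after it. The level changes below that chose them are therefore a description, with no test. Across the 4 libraries these genes had 1130 listed positions, of which 129 were listed in 2 or more libraries, out of 72042 such positions over all genes. The libraries came from day 6 retinal organoids of an Rx:GFP line with FKBP12F36V-HA fused to the C-terminus of endogenous METTL3. The untreated group (2 libraries, 0 h) received no dTAG13, and the treated group (2 libraries) received 125 nM dTAG13 for 8 h. Both groups carried the degron, so untreated cells are not cells with unmodified METTL3. The genotype text of 3 samples names Mettl4, Mettl5 or Mettl6 in place of Mettl3; the series title and design name METTL3 throughout. Nothing in the labels says whether replicates were separate cultures, so their spread may be technical.

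METTL3 is the catalytic subunit of the nuclear complex that places m6A on mRNA during transcription, mostly in long exons and around stop codons. FKBP12F36V is a degron tag, and dTAG13 links it to a ubiquitin ligase so that the tagged protein is degraded. RNA that was methylated before degradation keeps its mark until it decays, so after a short treatment the level of a site mixes older and newer molecules. In GLORI, glyoxal and nitrite turn unmethylated A into inosine, read as G, whereas m6A is still read as A. The level of a site is the percentage of reads with A, out of those with A or G, and the unconverted share of a gene is the percentage of all its A positions still read as A.

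Listed sites per library numbered 220034 to 350462, with a median of 75 to 91 reads per site. In the 7 genes the median was 152 to 192 reads per site. All 6 retinal progenitor markers checked (Rax, Pax6, Six3, Six6, Lhx2 and Sfrp2) were listed in every library, with summed coverage of 3703 and 4700 without and 2583 and 3478 with dTAG13. Pluripotency markers (Pou5f1, Nanog, Zfp42 and Esrrb) were also listed in every library, with summed coverage of 392 and 452 without and 375 and 422 with dTAG13. Of 4 neuronal markers, Tubb3 (coverage 235 and 222 without, 143 and 244 with dTAG13) and Map2 (46.2 and 55.96, then 54.7 and 57.7) were listed in every library, and Elavl3 and Dcx in 1 library each. Of 4 mesoderm and endoderm markers, Sox17 was listed in every library (45.8 and 26.02, then 29.3 and 69.8), Gata4 in 2, Foxa2 in 1 and Mixl1 in none. A gene is listed only where it holds a listed site, so a marker missing from a library may still be expressed. The part of cell composition in the values below was not tested.

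For each gene the lead site is the one whose mean level fell furthest, among positions present in every table on 20 or more reads. The genome build is unsettled: the submitters' processing notes name mm10, but 6 of the 7 genes had no listed site inside their interval in a GRCm38 RefSeq table. Positions are therefore given as listed and should not be used as mm10 coordinates, and exon, intron and UTR were not assigned. The lead sites are chr7:122601532 (plus strand) in Rbbp6, chr5:114960584 (minus) in 2610524H06Rik, chr11:78162702 (plus) in 2610507B11Rik and chr6:13602630 (minus) in Tmem168. The others are chr13:55745003 (plus) in Tmed9, chr10:112763156 (minus) in Atxn7l3b and chr14:121184379 (plus) in Ipo5. All 7 genes are protein-coding in RefSeq. Along the span of listed positions, read from the 5′ end, the lead sites of Rbbp6 (99.4%), Ipo5 (97.3%) and Tmed9 (89.8%) lay near the 3′ end. Those of Atxn7l3b (48.2%), 2610507B11Rik (35.0%) and Tmem168 (20.1%) did not, and that of 2610524H06Rik lay at 59.99%.

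Before treatment 5 of the 7 lead sites were close to fully methylated, at means of 99.6 to 100%. Ipo5 started at 87.8% and Tmed9 at 57.5%. After dTAG13, 6 lead sites had means of 11.4 to 17.7%, near the lowest level the tables list, 10%. The seventh, in Atxn7l3b, stayed at 39.9%, so near-complete loss describes this gene in 1 of its 2 treated libraries and not in the other. In every one of the 7 genes both treated libraries lay below both untreated libraries. Over all 2321 sites tested in the same way such separation occurred at 19.4%, and at 22.4% of the 1193 inside named genes, but nothing is read from the comparison because the genes were chosen on it.

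Rbbp6 encodes a RING-type ubiquitin ligase that binds p53 and RB and takes part in pre-mRNA 3′ end processing. Its lead site was at 100% (533 reads) and 99.7% (396 reads) without dTAG13 and at 12.7% (418 reads) and 10.3% (751 reads) with it. Wilson 95% intervals were 99.3 to 100% and 98.6 to 99.96% against 9.81 to 16.2% and 8.28 to 12.6%; they cover counting error only, as reads may be PCR copies. The groups were far apart and the replicates close. The mean change was -88.4 percentage points, the largest of all 1193 tested sites inside genes, which are sites listed in all 4 libraries. Sites around it did not share this height: within 100 bases, the untreated libraries listed 5 and 3 other sites at 10.4 to 21.3%, and the treated libraries 6 and 3 at 11.2 to 22.1%. A second high site 161 bases upstream, at 90.2% (112 reads) and 100% (35 reads) untreated, was listed in neither treated library. Across the gene, however, sites at 90% or more numbered 11 and 10 untreated and 13 and 11 treated, with 0 in both treated libraries. One of them lay 190 bases upstream of the lead, at 93.2% (73 reads) in the second treated library alone. Farther upstream, the site at position 122600844 had 71.6% (81 reads) in the first untreated library and 17.9% and 27.4% in the treated libraries. By contrast, 122601517 (12.9% and 11.7%) and 122601561 (17.5% and 14.9%), each listed in 1 library per group, differed by less than 3 points. Far from the lead, 122578124 stood higher with dTAG13, at 28.1% (64 reads) and then 57.1% (49 reads).

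Ipo5 is an importin beta family receptor that carries cargo such as histones and ribosomal proteins into the nucleus. Its lead site was at 90.8% (901 reads) and 84.8% (1048 reads) untreated and at 17.03% (276 reads) and 18.4% (1099 reads) treated. All other recurring sites of this gene were lower than the untreated lead: of 36 recurring sites, none but the lead exceeded 52.4% in any library. At the 21 of them listed in both groups, the median change was 0.53 points, and 18 of 21 changed by less than 10 points. Of its other recurring sites, 7 were listed in both untreated libraries only and 7 in both treated libraries only. The position 121181817 was the largest rise, from 12.2% (222 reads) to 52.4% (191 reads), each in a single library. Outside the recurring sites, a position 196 bases downstream of the lead was at 68.6% (875 reads) in the first untreated library alone.

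Atxn7l3b encodes a paralog of the SAGA subunit ATXN7L3 that competes for its partner ENY2. Here the treated replicates differed widely. The lead site was at 99.7% (745 reads) and 99.5% (605 reads) untreated, at 14.5% (345 reads) in the first treated library and at 65.4% (396 reads) in the second. A second fully methylated site, 112763831, was at 100% and 99.8% untreated and at 41.2% (148 reads) and 60.1% (301 reads) treated. The third, 112763980, was at 99.8% in the first untreated library, unlisted in the second, and at 32.6% and 55.7% treated. At all 3 sites the second treated library had the higher level. The lead site's mean change of -59.7 points was -34.2 without the first treated library and -85.1 without the second. The adjacent 112763987 was at 75.4% and 74.8% untreated and at 31.8% in the first treated library. The site 112763579 went from 86.1% and 42.9% to 18.6% in the second treated library. These sites lay within 831 bases of the lead. At lower levels, 112763392 went from 36.9% (149 reads) to 16.3% (92 reads), each in 1 library. A low site, 112763183, 27 bases from the lead, was at 14.4% untreated and 14.8% treated, in 1 library each. Other positions stood higher with dTAG13: 112764668 was at 13.8% (400 reads) and then at 58.5% (371 reads), and 112761830 at 11.5% (443 reads) and then at 41.9% (148 reads). Of the 21 recurring sites besides the lead that both groups listed, 10 changed by less than 10 points, 5 were lower by 20 points or more and 3 higher by as much.

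Tmed9 is a p24 family cargo receptor of vesicles between the endoplasmic reticulum and the Golgi. Its lead site was intermediate, at 56.1% (811 reads) and 58.9% (751 reads) untreated, and at 10.9% (1038 reads) and 13.3% (383 reads) treated. Its mean level fell by 45.4 points and left 21.1% of the untreated level. The remainder was 11.4 to 20.2% at the 5 other lead sites that ended near the listing limit and 40.1% in Atxn7l3b. A listed site keeps a level of 10% or more, so a lower start sets a higher least remainder. The nearby position 55744862, 141 bases upstream, was listed at 70.9% (182 reads) in the second untreated and at 11.8% (102 reads) in the first treated library. A pair of low positions, 55741082 and 55744814, went the other way, from 11.5% to 18.5% and from 10.2% to 31.1%. No Tmed9 site was at 90% or more in either untreated library, and 1 was in the second treated library. It lay 322 bases upstream of the lead, at 100% (184 reads), and was listed in that library alone.

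Tmem168 encodes a multi-pass membrane protein. Its lead site was at 100% in the first untreated library on 23 reads (interval 85.7 to 100%) and at 99.2% on 133 reads in the second. Treated levels were 11.9% (243 reads) and 10.8% (232 reads). This gene had the thinnest untreated data of the set. The site 252 bases upstream, at 94.4% (54 reads) and 97.2% (71 reads) untreated, was listed in neither treated library. At the far 3′ side, 13582820 was at 83.7% and 100% untreated and at 58.6% (29 reads) treated. Lower levels also stood at 13581775 (63.4% on 41 reads, then 19.5% on 128 reads) and 13582411 (62.7% on 59 reads, then 37.6% on 85 reads), each listed in 1 library per group. A pair of positions ran against this. The site 13602575, 55 bases from the lead, was at 19.4% (258 reads) untreated and 29.4% (768 reads) treated, and 13581716 was at 20.8% (101 reads) in the first untreated and at 100% (74 reads) in the second treated library, the largest rise among the recurring sites of the 7 genes.

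2610507B11Rik is the mouse counterpart of KIAA0100, a large lipid transfer protein of membrane contact sites. Its lead site read A in all 165 and 81 reads of the untreated libraries, and in 12.7% of 299 and 19.6% of 219 reads of the treated libraries. The sites 122 and 416 bases downstream were also at 100% in both untreated libraries (31 and 74 reads, 117 and 356 reads). Neither was listed after dTAG13. A closer site, 54 bases upstream, was listed in both treated libraries alone, at 34.1% (299 reads) and 53.9% (269 reads). So was the distant 78152652, at 76.8% (99 reads) and 36.25% (160 reads). Absence from a table can mean a level below 10%, too few reads or no coverage. The site 510 bases upstream, at 34.4% and 20.6% untreated and 19.2% and 16.3% treated, was also listed in all 4 libraries. Its mean level fell by 9.7 points, which was smaller than the difference between its untreated replicates. Elsewhere in the gene, 78180928 was at 100% (69 reads) and then at 17.2% (87 reads), whereas 78165618 went from 34.7% (75 reads) to 88.9% (45 reads) and 78181189 from 12.1% (264 reads) to 59.6% (89 reads). Each of these was listed in 1 library per group, so the gene held readings that moved both ways.

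2610524H06Rik is a short gene with no function assigned here. Its lead site was at 100% on 177 and 330 reads untreated, and at 16.1% (254 reads) and 12.3% (423 reads) treated. It was the only site of this gene at 90% or more in any library. Other recurring sites lay mostly below 30%, and 5 were listed in both treated libraries alone, at 10.3 to 27.6%. Its next highest recurring site, 114960450, was at 74.0% (104 reads) in the first untreated library and stood at 36.7% (128 reads) in the second treated library.

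**Figure D1:**
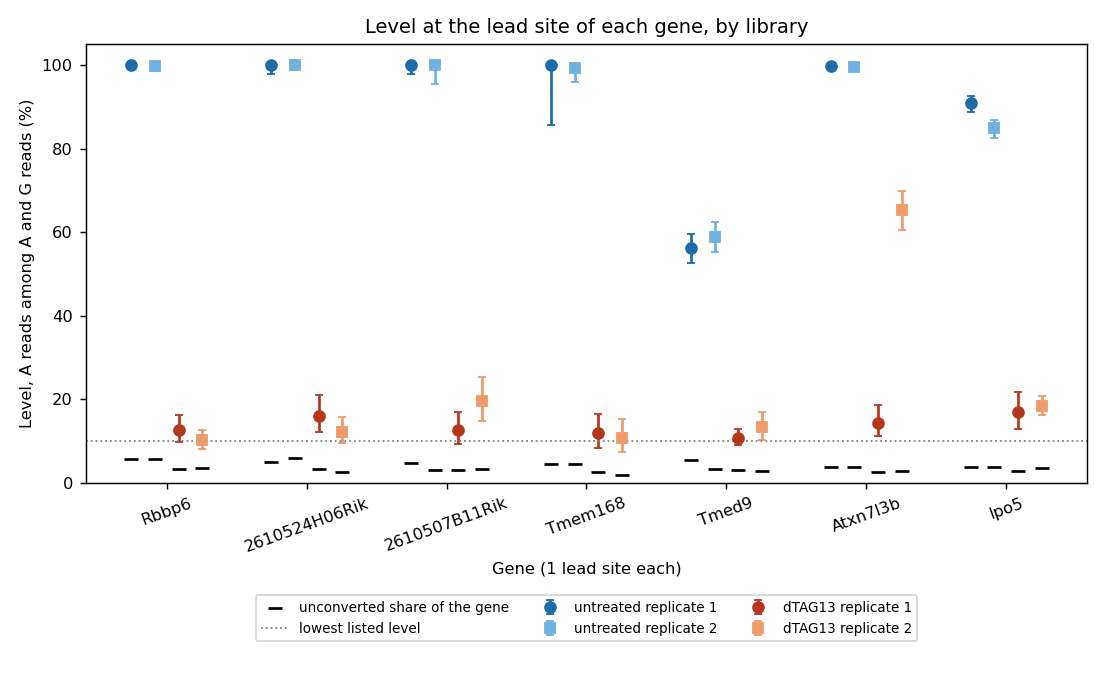
Level at the lead site (y axis, percent of A and G reads read as A) for the 7 genes (x axis), 1 point per library with its Wilson 95% interval; black dashes mark the unconverted share of the gene in that library and the dotted line the lowest listed level. Untreated points are at 56.1% or more and treated points at 19.6% or less, except the second treated library of Atxn7l3b at 65.4%.

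**Figure D2:**
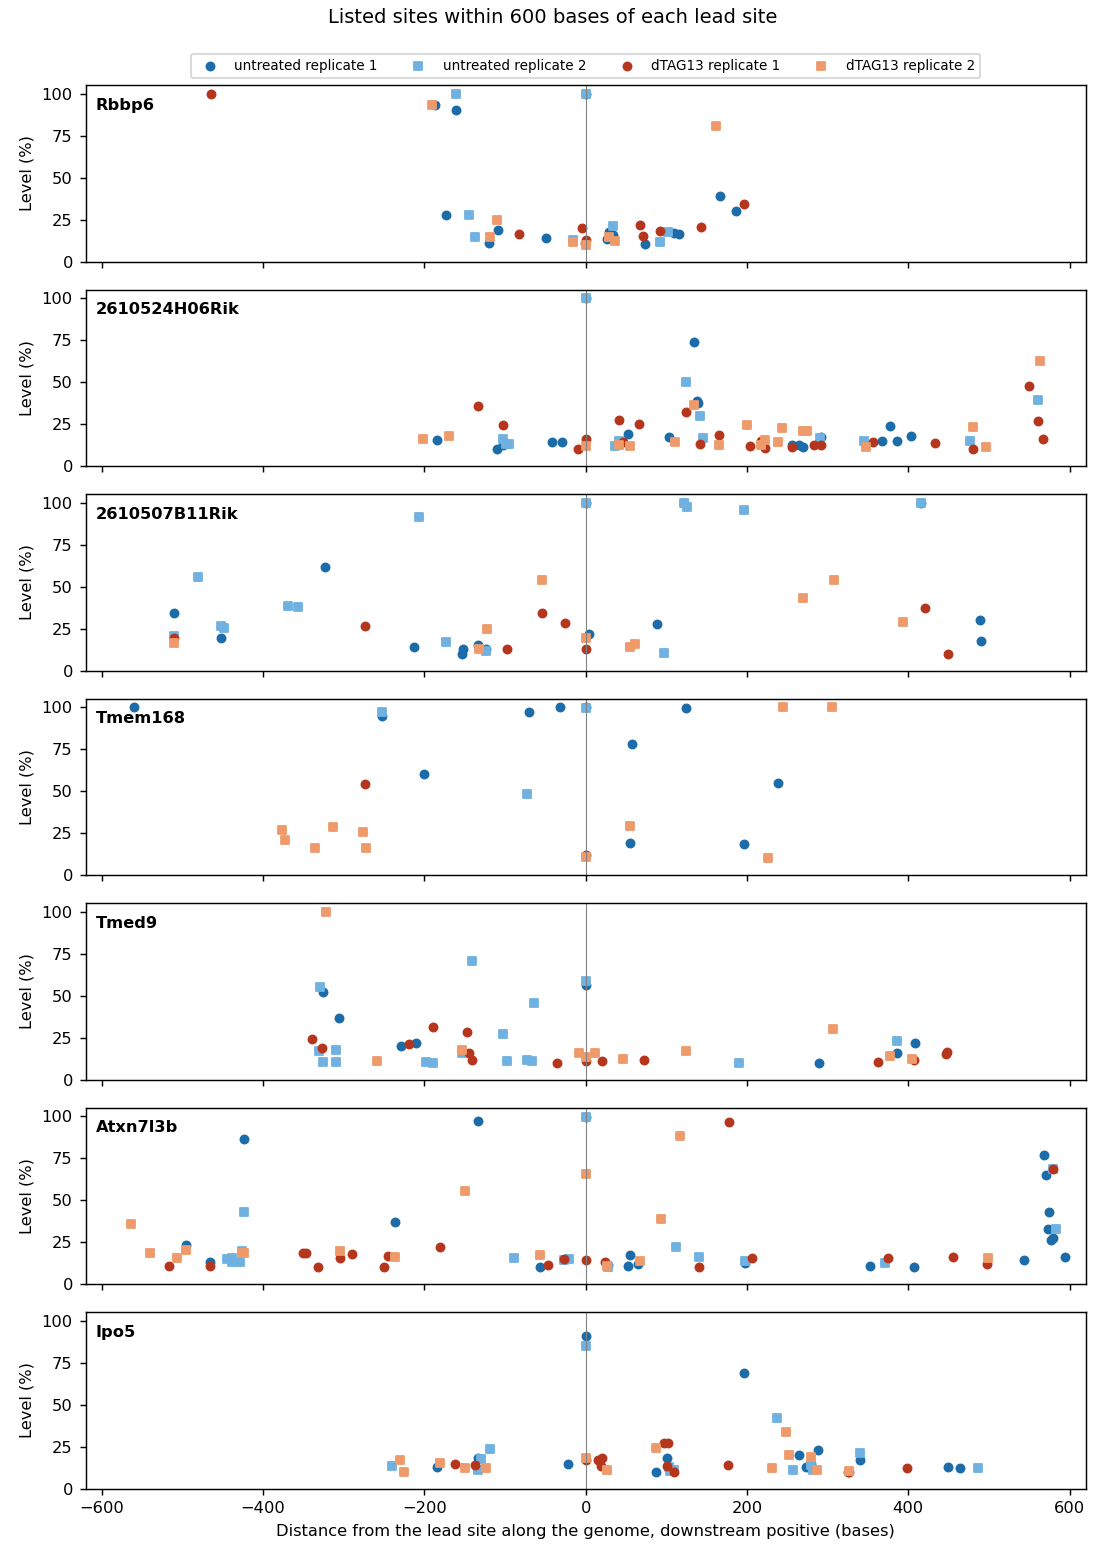
Level (y axis, percent) of every listed site within 600 bases of each lead site, by distance from it in bases (x axis, downstream positive) and by library; points at distance 0 are the lead sites and can overlap. In 2610524H06Rik and Ipo5 the other sites have medians of 12.7 to 16.1% per library and at most 1 per library reaches 50%, whereas in Tmem168 the other sites have medians of 86.1% (10 sites) and 72.6% (2 sites) untreated and of 54.3% (1 site) and 26.5% (10 sites) treated.

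The treated lead sites exceeded the unconverted share of their genes, an excess that listing at 10% or more in every library fixes. That share was 1.96 to 3.58% in the treated libraries, and the lead sites exceeded it by 6.67 to 16.1 points outside Atxn7l3b. After subtraction of this share in every library, 8.52% of the untreated excess remained in Rbbp6, 9.53% in Tmem168, 11.9% in 2610524H06Rik and 13.4% in 2610507B11Rik. The remainder was 17.04% in Tmed9, 17.2% in Ipo5 and 38.7% in Atxn7l3b. Because a site under 10% would not have been listed, a site that dropped further could not have been a lead site. The same limit sets a higher least remainder where the untreated level was lower, as in Tmed9.

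The quasi-binomial model over all 2321 sites listed in the 4 libraries called 51 sites lower (2.2%) and 2 higher (0.0862%) at an adjusted p under 0.05. Of the 9 sites tested in the 7 genes, 7 were among the lower ones, which the choice of genes fixes. The 2 that did not pass were the Atxn7l3b lead and the upstream site of 2610507B11Rik. Leaving out any 1 library, or blocking on the replicate number, left 0 sites called over the whole table and 0 of these 9, with 196 to 217 sites at an unadjusted p under 0.05. Nothing is read from the ranks that follow, because the genes were chosen for their falls and sites that fell below 10% are not ranked. By size of the largest fall per gene, 4 of the genes ranked 1 to 4 of 1016. Ipo5 ranked 20, Atxn7l3b 37 and Tmed9 63. Thus 56 genes outside the set fell at least as far as Tmed9. The smallest fall in the set was that of Tmed9 (-45.4 points). Its neighbours in rank, both outside the set, were Gins2 (74.02% to 28.4%, -45.6 points) and Commd5 (99.5% to 54.6%, -44.9 points).

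Most listed positions did not recur. Of the 1130 positions, 1001 (88.6%) were in 1 library alone, against 91.4% over all genes. Of the 129 that recurred, 29 (22.5%) were in both untreated libraries alone and 21 (16.3%) in both treated libraries alone, against 27.9% and 10.6% over all genes. Another 61 were in 1 library of each group, and 9 (6.98%) were in all 4, against 1.69% over all genes, a share that the choice of genes raises. By gene, recurring positions numbered 36 in Ipo5, 29 in Atxn7l3b, 18 in 2610507B11Rik, 13 in Rbbp6, 13 in 2610524H06Rik, 11 in Tmem168 and 9 in Tmed9.

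Among the other recurring sites of the 7 genes, those listed in both groups went both ways. Left out are the 29 listed in both untreated libraries alone and the 21 in both treated libraries alone. At the 72 listed in at least 1 library of each group, the median change was -0.97 points, 37 changed by less than 10 points, 15 were lower by 20 points or more and 10 higher by as much. Without the untreated replicates in turn the median was -0.89 and -2.15 points, and without the treated replicates in turn -0.27 and -4.53 points. The same median over 44304 sites of all genes was 1.57 points. Sorting by level gave opposite pictures in the 2 directions. The 14 sites at 50% or more untreated had a median change of -44.9 points (all genes -33.1), and the 11 at 50% or more with dTAG13 had a median of 32.1 points (all genes 38.0). Each of these medians follows a pick on the level in 1 group, and sites unlisted in the other group are left out. The part of this choice in the changes was not tested. The 51 sites below 30% untreated had a median change of 0.53 points, against 3.98 over all genes. Listing at 10% or more keeps such a site from a fall of 20 points, so 0 of the 51 fell that far, and 7 rose by as much.

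**Figure D3:**
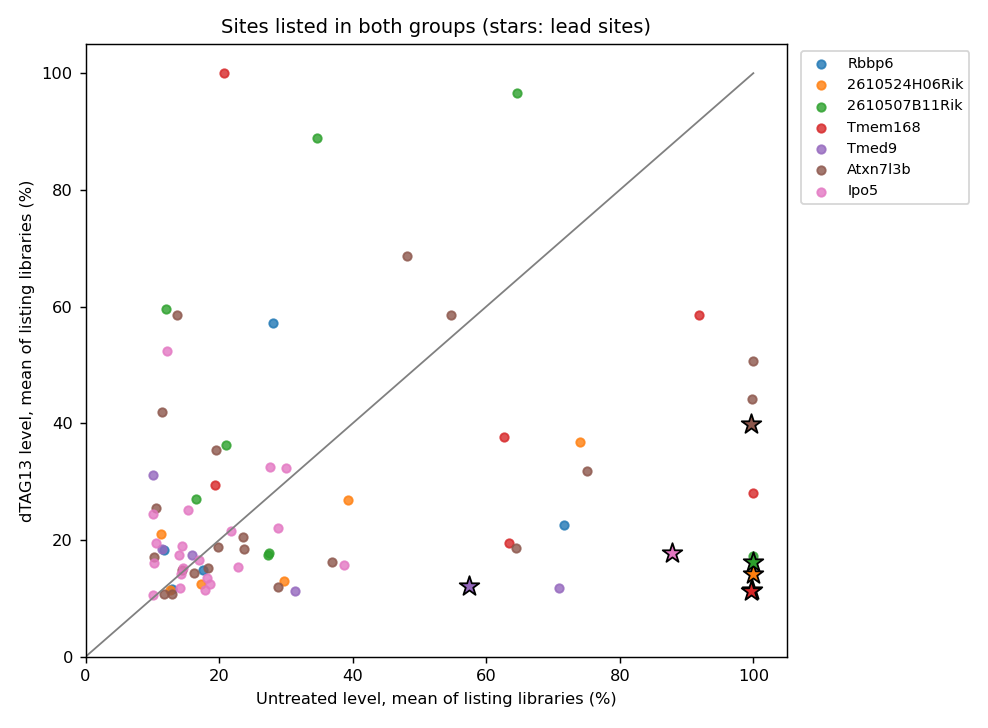
Untreated level (x axis) against dTAG13 level (y axis), in percent, for the sites of the 7 genes listed in both groups, each as the mean over the libraries that list it; stars are lead sites and the line marks equal levels. Most of the 72 other sites sit at 10 to 40% on both axes, while lead sites and a few others lie in the lower right corner.

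In the 7 genes, 10 sites were at 90% or more in both untreated libraries. Of these, 5 are lead sites, so their number is largely fixed by the choice of genes and nothing is read from it. All told, 6 of the 10 were still listed in both treated libraries and 4 in neither. In these genes 0 sites were at 90% or more in both treated libraries. Over all genes these numbers were 1705 and 194 sites, and 80.5% of the 1705 were listed in neither treated library. Sites at 90% or more in a single library remained common after treatment. The treated libraries listed 21 and 24 of them in the 7 genes, of which 20 and 23 appeared in no other library, on a median of 30.5 and 52 reads. In the untreated libraries 23 of 40 and 13 of 24 appeared in no other library. Over all genes the share in no other library was 88.7% and 89.3% untreated and 92.7% and 93.2% treated. The recurring high sites of the untreated libraries had a median of 112 and 133 reads, and the unshared ones 32 and 38.

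The number of listed sites moved in different directions from gene to gene. It was lower in both treated libraries in 2610507B11Rik (106 and 80 untreated, 43 and 58 treated) and Tmem168 (35 and 26, then 19 and 24). It was higher in both in Tmed9 (15 and 21, then 33 and 24) and 2610524H06Rik (19 and 15, then 25 and 20). The groups overlapped in Rbbp6 (54 and 43, then 51 and 56), Atxn7l3b (46 and 50, then 46 and 53) and Ipo5 (88 and 66, then 91 and 79). Of 12520 genes listed in all libraries, 44.6% were lower without overlap and 4.53% higher. Summed over the 7 genes, the ratio of treated to untreated was 0.937, and the median ratio per gene over all genes was 0.714. Without untreated replicate 1 it was 1.03, without untreated replicate 2 it was 0.857, and at sites with at least 50 reads it was 1.04, so the summed number has no settled direction.

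Gene coverage, a deposited value per gene and library whose scaling is not stated, was lower in 3 of the 7 genes and higher in 1 without overlap of the groups, both as deposited and centred on the median gene. Over all genes 28.1% were lower and 10.1% higher without overlap as deposited, and 29.2% and 17% after centring. The limma fit called 0 of 12520 genes (0%) at an adjusted p under 0.05, with 1595 at an unadjusted p under 0.05. Atxn7l3b had a coverage of 709 and 704 untreated and of 335 and 491 treated. Tmed9 had 653 and 633, then 396 and 409. Ipo5 had 569 and 704, then 368 and 564. On the log2 scale, with each library centred on its median gene, these were changes of -0.72 ± 0.20, -0.59 ± 0.23 and -0.39 ± 0.22 (limma estimate and SE, n = 2 per group), and they shrank to -0.38, -0.27 and -0.05 after quantile normalisation. These 3 genes lay in the coverage range of 300 to 1000 untreated, where 68.7% of 1340 genes were lower without overlap and the median change was -0.38, a range set after the data were seen. Tmem168 had 64.7 and 83.7 untreated and 89.9 and 172.8 treated, a log2 change of 0.84 ± 0.26. Rbbp6 (134 and 110, then 102 and 162), 2610524H06Rik (219 and 189, then 174 and 233) and 2610507B11Rik (108 and 133, then 100.04 and 129) overlapped between groups. Large falls in level thus occurred beside lower, higher and overlapping coverage. In bulk RNA, fewer cells expressing a gene and less RNA per cell cannot be told apart.

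The unconverted share was lower in both treated libraries in 6 of the 7 genes, and over all genes the conversion rate was higher without overlap in 40.9%. In Rbbp6 it was 5.68% and 5.67% untreated and 3.31% and 3.58% treated. In 2610524H06Rik it was 5.04% and 6.11%, then 3.37% and 2.56%. Tmem168 had 4.70% and 4.57%, then 2.65% and 1.96%, and Tmed9 had 5.50% and 3.48%, then 3.16% and 2.99%. Differences were smaller in Atxn7l3b (3.83% and 3.77%, then 2.77% and 2.94%) and Ipo5 (3.81% and 3.78%, then 2.94% and 3.55%). The groups overlapped in 2610507B11Rik, at 4.73% and 3.26%, then 3.18% and 3.50%. Mean changes in the 7 genes ran from -2.61 to -0.5485 points. The unconverted share covers all A positions of a gene, methylated ones included, so it does not give the conversion at a lead site. The part of conversion in the lead site changes was not tested.

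**Figure D4:**
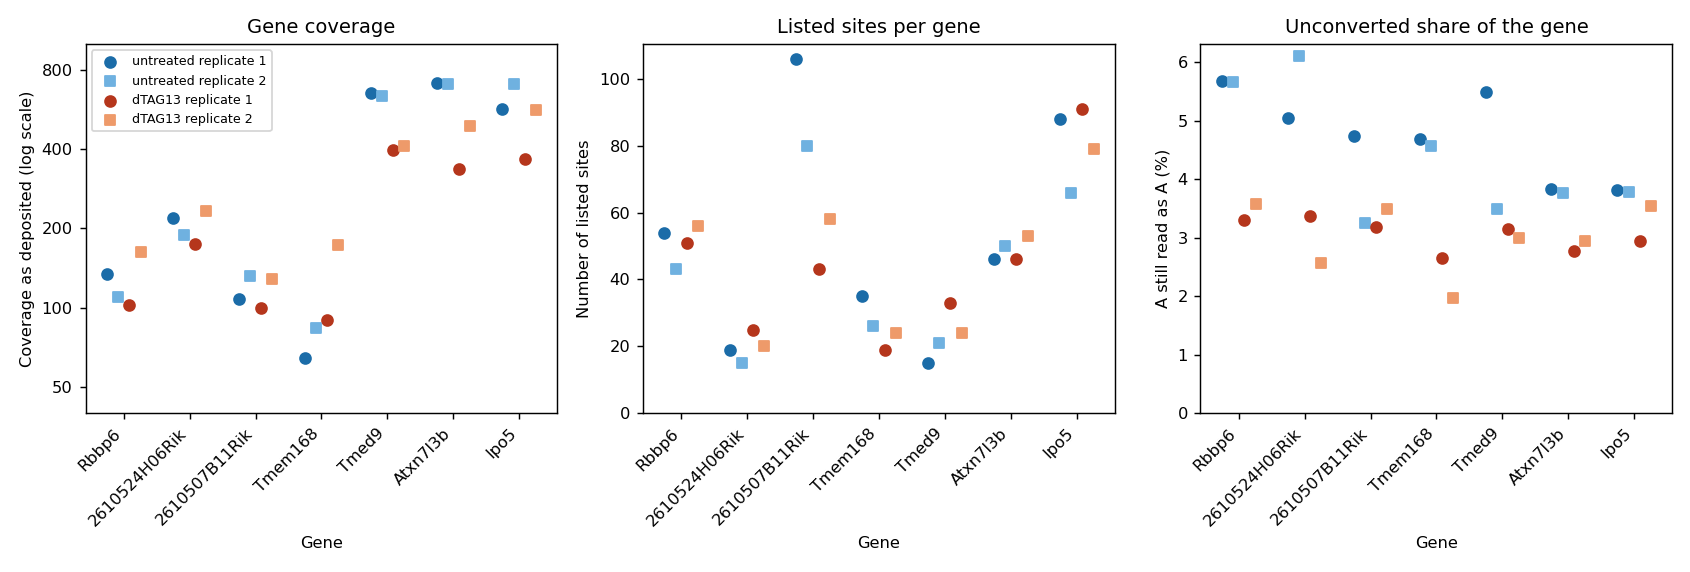
Coverage as deposited (left, log scale), number of listed sites (middle) and unconverted share in percent (right) for each of the 7 genes, 1 point per library. Atxn7l3b, Tmed9 and Ipo5 have lower coverage in both treated libraries and Tmem168 higher, and the unconverted share is lower in both treated libraries in every gene but 2610507B11Rik.

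Relatives of the 7 genes gave few sites to compare. Of 17 other importin beta family genes, 3 had a tested site and 0 of 3 sites passed the quasi-binomial model at an adjusted p under 0.05, against 2.2% of all tested sites lower. Their values differed: Ipo4 was at 96.7% and 90.7% untreated and at 55.9% (34 reads) and 40.0% (45 reads) treated (adjusted p 0.115). Ipo7 was at 10.0% and 11.3%, then at 34.9% and 28.4% (adjusted p 0.139), and Kpnb1 at 15.04% and 10.7%, then at 11.7% and 10.3% (adjusted p 0.894). Centred coverage of this family was lower without overlap in 13 of 17 genes and higher in 0, with a median log2 change of -0.33. Over all genes 29.2% were lower and 17% higher, with a median of -0.07, and among genes of the coverage range that holds Ipo5 68.7% were lower, with a median of -0.38. Of 8 other p24 genes, 2 had a tested site and 0 passed; Tmed2 was at 35.9% and 18.4% untreated and at 20.3% and 30.1% treated, and Tmed7 at 20.9% and 16.4%, then at 16.3% and 10.9%. Among 6 genes of the SAGA deubiquitinase module only Usp22 had a tested site (10.6% and 15.6%, then 21.8% and 10.4%). Among 17 genes of mRNA 3′ end processing, the pathway of Rbbp6, only Wdr33 did (17.5% and 29.6%, then 23.3% and 34%), and neither passed. In that pathway 6 sites were at 90% or more in both untreated libraries, and 5 of the 6 were listed in neither treated library, against 80.5% over all genes. The 8 genes of the m6A methyltransferase complex had 0 tested sites; 2 of their 3 sites at 90% or more in both untreated libraries were listed in neither treated library. Their centred coverage was higher without overlap in 4 of the 8 genes, against 17% of all genes, and lower in 0, against 29.2%.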

How the data were processed

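GLORI site tables of 4 libraries were used, 1 per library. The counts of A and G reads and of A reads are as deposited, not normalised. The deposited fraction of A is their ratio (within 1e-05 at 100% of sites), uncorrected for conversion; another deposited fraction is each gene's conversion rate. The coverage signal per gene, deposited by the authors, has a scaling to depth or length that is not given in the sources used here. Changes in it were therefore taken within a gene. The marker sums and the coverage range of 300 to 1000 do combine or sort genes on this unknown scale. The p-value of each site, deposited by the authors, was not used. Every table held only sites with at least 15 reads, 5 A reads, a level of 10% and an adjusted p up to 0.00401. Per the file names, second mates with trimmed molecular identifiers were used; the aligner and caller are not given in the sources used here.

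Groups came from the sample titles. A quasi-binomial model of A and G reads (dispersion moderated with limma 3.58.1's squeezeVar and held at 1 or above, deviance F test) was fitted in R 4.3.3 to sites in all 4 libraries with at least 20 reads. limma was fitted to median-centred log2 coverage. Values of p were adjusted by Benjamini-Hochberg, threshold 0.05, over all features. Both fits were tested on simulated data. Its change sizes and the replicate spread of its sites were set by hand and not taken from these libraries, so nothing is read from it here. The read minimum also applied to lead sites, and all 7 are the same without it. Shares have Wilson 95% intervals. The genes and lists were chosen with earlier results of these data known. All 7 genes are named; the rule fixed for naming took every recurring site, but only those the results turn on are printed singly and the rest are given as counts. Up to 4 relatives per list are named by their number of sites in all libraries. No genome of the tables' build was used, so no sequence is shown. Alternatives are in the closing section.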

Additional observations from a re-analysis of the deposited data

How the results depend on the processing

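The number of sites called over the whole table was 53, and 531 with Fisher's exact test on reads summed over replicates. With limma on log2 odds, and with at least 50 reads, it was 41 each, and 52 without a read minimum. It was 0 with the replicate number as a block and 0 in each fit that left out 1 library, where 1 group has a lone library assumed to vary like the other. The replicate numbers share only a number: deviations of same-numbered libraries correlated at 0.0385 for site levels and 0.0023 for coverage. The block fit and the fits without a library have 1 residual degree of freedom per site. Over the genes, coverage calls went from 0 to 15 without centring, where the median log2 change over all genes was -0.15 against -0.07 with it, and stayed at 0 with the replicate block, with quantile normalisation and without any 1 library. A coverage minimum of 10 removed no gene. The median change at the lead sites was -83.8 points and ran from -85.1 to -80.4 without 1 library. In Atxn7l3b the change was -59.7 points, -34.2 without dTAG13 replicate 1 and -85.1 without dTAG13 replicate 2. The median change at the other recurring sites was -0.97 points, ran from -4.53 to -0.27 without 1 library, and was -29.5 points at the 2 of them listed in all 4 libraries. The ratio of listed sites, 0.937, ran from 0.857 to 1.03 without 1 library and was 1.04 at sites with at least 50 reads. Depth limits Tmem168 most, with 23 reads at its lead site in 1 untreated library. With 2 libraries in each group, no outlying library was looked for.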
